A study of Mus musculus with 9 samples.

Results

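Expression of the genes of central carbon metabolism was examined in mouse dendritic cells (DC) left untreated or exposed to trichostatin A (TSA) or butyrate. A list of 51 genes covered glucose uptake and glycolysis, the pentose phosphate pathway and the entry of pyruvate into mitochondrial metabolism. It also covered the tricarboxylic acid (TCA) cycle with its cytosolic counterparts. Members were found by their symbol in the platform annotation, among probe sets with exactly 1 symbol, and where a gene had several such probe sets the one of highest average level across the 9 arrays stood for it. In this way 46 of the 51 genes were measured, of 12394 genes in all: 19 of 23 in uptake and glycolysis, 6 of 7 in the pentose phosphate pathway, 6 of 6 at pyruvate entry and 15 of 15 in the TCA cycle. Hk3, Gpi1, Pfkfb4, Eno1 and G6pdx were not analysed here.

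The cells were splenic DC taken with CD11c magnetic beads from mice aged 6 to 8 weeks that had been given B16 melanoma cells expressing Flt3L, a growth factor that expands DC. All 3 groups share this source: the untreated cells, the cells given TSA and the cells given butyrate, with 3 samples and 3 one-colour Affymetrix arrays each. TSA and butyrate both inhibit histone deacetylases. The labels give no dose or duration, and do not state whether the replicates were independent mice or cultures, so p-values measure only the spread between these samples, which may be technical. Because each sample is a bulk population, fewer cells of a type and less RNA per cell cannot be told apart.

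Glycolysis splits glucose into pyruvate in the cytosol, and lactate dehydrogenase can reduce that pyruvate to lactate. The pentose phosphate pathway branches from glycolysis, yielding NADPH and ribose, and the pyruvate dehydrogenase complex turns pyruvate into acetyl-CoA, which citrate synthase feeds into the TCA cycle. DC are known to raise glycolysis when they are activated and to use citrate exported from the cycle for lipid synthesis.

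Levels are log2 values, so a difference of 1 is a 2-fold change, and no level is compared between genes. Arrays correlated at 0.997 to 0.998 within groups and at 0.966 to 0.993 between them, over genes that are not independent replicates. Of 13 measured DC markers, H2-Aa, Cd74, Flt3 and Itgax had untreated means of 14.65, 14.39, 11.02 and 9.24. Flt3 and Itgax fell with TSA (-0.60 and -0.99) and with butyrate (-0.63 and -0.74). H2-Aa was called in neither (0.02 and -0.10), and Cd74 fell with TSA (-0.16) and was not called with butyrate (-0.09). Cd24a rose in both (0.24 and 0.28) and Irf8 with butyrate (0.22). Of the 13, 7 fell and 1 rose with TSA (background 21% lower, 26.3% higher). With butyrate 8 fell and 2 rose (background 24.8% and 33.6%). Markers of other cell types had untreated means of 13.83 (S100a8), 12.87 (Ighm) and 12.14 (Slc4a1). Others of the same lists had 5.31 (Cxcr2), 4.79 (Pax5) and 5.16 (Hba-a1), so these levels do not show purity. Added hybridization control RNAs read 10.37 ± 0.075 (SD, n = 3) untreated, 10.38 ± 0.030 with TSA and 10.78 ± 0.063 with butyrate. On a scale set by these controls the median change of all genes with butyrate moved from 0.08 to -0.33, and on one set by the poly-A controls to -0.27. Butyrate directions below are therefore relative to the bulk of genes unless a control scale is named. The poly-A controls read 8.56 ± 0.308 (SD, n = 3) untreated, 8.59 ± 0.137 with TSA and 8.91 ± 0.099 with butyrate. Their spread between untreated arrays exceeded their shift with TSA (0.027).

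With TSA, 27 of the 46 measured genes rose and 12 fell in the limma fit over all genes, at a Benjamini-Hochberg adjusted p under 0.05. The background was 47.3% of all genes called, 26.3% higher and 21% lower. The median change was 0.30 against 0.03 over all genes. With butyrate 25 rose and 15 fell, against a background of 58.4% called, 33.6% higher and 24.8% lower. The direction of the group depended on the scale. On the hybridization control scale 13 were higher and 24 lower, and on the poly-A control scale 9 and 15. Of all 12394 genes, 932 were called higher and 8418 lower on the first, and 548 and 3581 on the second. The median change with butyrate was 0.21 on the deposited scale, where all genes had 0.08. On the hybridization control scale it was -0.20, where all genes had -0.33. Both comparisons use the same 3 untreated arrays, so their values stand side by side and are not independent. Arrays of the TSA group lay wholly above the untreated ones for 29 members (background 31%) and wholly below for 12 (background 23.9%). For butyrate these counts were 25 (background 36.5%) and 15 (background 26.2%). Changes of at least 2-fold were made by 7 rising and 2 falling members with TSA, and by 7 and 3 with butyrate, where 2.14% and 3.28% (TSA) and 2.74% and 4.6% (butyrate) of all genes did so.

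**Figure D1:**
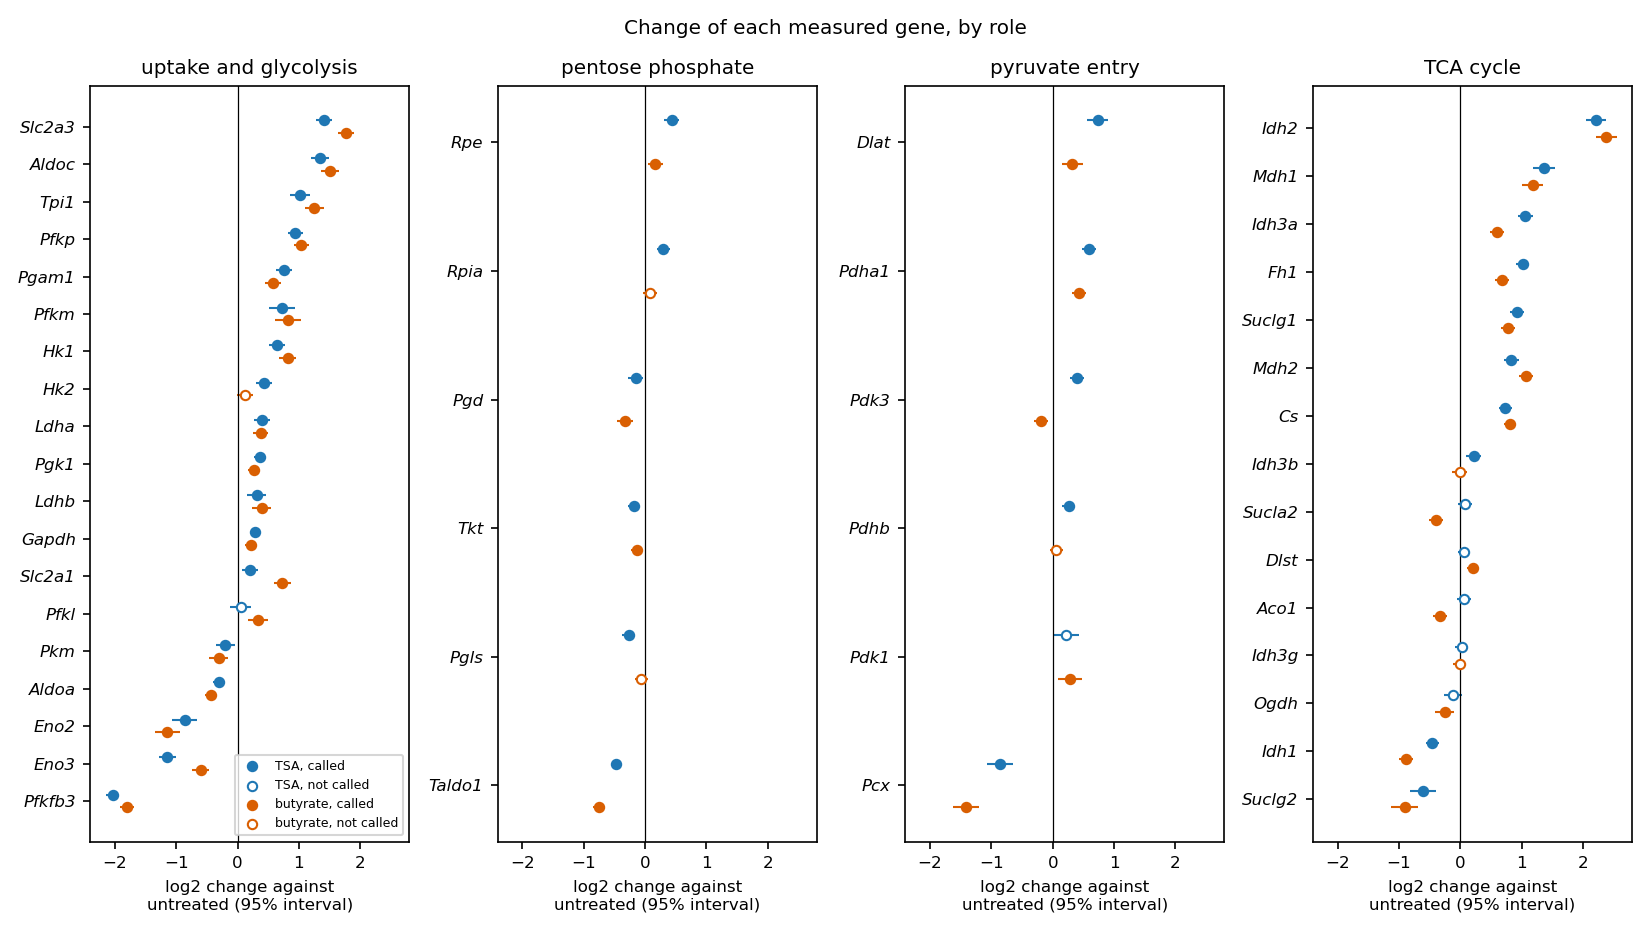
Change of each measured gene (rows) against untreated cells on the log2 scale (x axis), by role (panels), with TSA and butyrate, on the deposited scale. Points are limma estimates from 3 arrays a group, and bars are 95% intervals. The largest rise is that of Idh2 (2.22 with TSA, 2.38 with butyrate) and the largest fall that of Pfkfb3 (-2.04 and -1.80).

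The sequence before the start of 5 of these genes is shown because they rose or fell most among the genes whose window is clear of other genes. The rule was set after the values were seen: the 3 largest rises and 2 largest falls with TSA among called members whose outermost window overlaps no annotated gene. RefSeq (build GRCm38.p6) gives the 250 bases before each start, printed 5′ to 3′ on the gene's own strand: Aldoc at chr11:78322823-78323072, plus strand; Tpi1 at chr6:124814159-124814408, minus strand; Fh1 at chr1:175625636-175625885, minus strand; Pcx at chr19:4510222-4510471, plus strand; and Taldo1 at chr7:141391910-141392159, plus strand. Capitals mark 3 motifs sought on both strands: ACGTG or GCGTG (core of the hypoxia response element), CACGTG (E-box, which contains ACGTG and so is counted under both) and GGGCGG (GC box, or CCGCCC on the other strand).
Aldoc: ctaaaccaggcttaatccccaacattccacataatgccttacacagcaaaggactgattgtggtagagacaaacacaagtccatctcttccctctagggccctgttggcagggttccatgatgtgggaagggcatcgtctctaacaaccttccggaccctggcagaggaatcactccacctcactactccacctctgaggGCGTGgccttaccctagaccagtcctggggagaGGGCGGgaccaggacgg
Tpi1: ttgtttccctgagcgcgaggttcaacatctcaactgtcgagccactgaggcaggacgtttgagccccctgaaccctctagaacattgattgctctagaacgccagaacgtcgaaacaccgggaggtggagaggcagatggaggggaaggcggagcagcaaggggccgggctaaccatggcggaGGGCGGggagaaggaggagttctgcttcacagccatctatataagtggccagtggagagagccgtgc
Fh1: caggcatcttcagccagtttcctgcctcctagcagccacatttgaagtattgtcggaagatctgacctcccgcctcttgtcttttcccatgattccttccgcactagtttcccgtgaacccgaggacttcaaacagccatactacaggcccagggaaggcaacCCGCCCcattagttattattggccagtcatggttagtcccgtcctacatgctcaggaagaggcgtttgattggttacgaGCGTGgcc
Pcx: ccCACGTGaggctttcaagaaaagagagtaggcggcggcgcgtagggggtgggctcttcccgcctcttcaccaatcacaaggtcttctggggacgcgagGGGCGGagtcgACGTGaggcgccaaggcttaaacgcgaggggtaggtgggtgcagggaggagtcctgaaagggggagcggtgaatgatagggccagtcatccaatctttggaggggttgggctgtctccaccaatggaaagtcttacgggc
Taldo1: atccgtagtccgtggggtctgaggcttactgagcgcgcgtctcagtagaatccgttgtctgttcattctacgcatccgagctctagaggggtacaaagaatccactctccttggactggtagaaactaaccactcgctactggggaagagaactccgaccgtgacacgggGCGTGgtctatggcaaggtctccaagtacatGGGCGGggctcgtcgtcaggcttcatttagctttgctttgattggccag
Each of the 5 windows held 1 GC box, and Pcx alone held an E-box. Windows were found for 44 of the 46 measured members (63 windows; Slc2a3 and Idh3a had none). ACGTG or GCGTG stood in 45 of these 63 (71.4%), in 38.6% of all 32851 windows and in 50.6% of the windows of tested genes. The shares for CACGTG were 11.1%, 6.02% and 7.68%, and those for GGGCGG 57.1%, 32.7% and 51.3%. Median GC content was 60.4% in the members' windows, 52.4% in all windows and 58.4% in those of tested genes. Members that rose with TSA held ACGTG or GCGTG in 77.4% of 31 windows, those that fell in 63.2% of 19, and those not called in 69.2% of 13. These windows came from 25, 12 and 7 genes, and windows of 1 gene can overlap, so they are not independent. Ogdh, not called, had several overlapping windows, with ACGTG or GCGTG in each and CACGTG in some. A match is only a match of letters, not a bound site.

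In uptake and glycolysis, 13 of 19 genes rose and 5 fell with TSA, and 13 rose and 5 fell with butyrate, where the hybridization control scale gave 7 and 7 and the poly-A scale 6 and 5. Slc2a3, a high-affinity glucose transporter, made the largest rise of the role in both treatments. Slc2a3 read 8.30, 8.48 and 8.40 in untreated cells, 9.75, 9.82 and 9.86 with TSA, and 10.15, 10.13 and 10.21 with butyrate. All treated arrays lay above all untreated ones, and the butyrate arrays above the TSA arrays. The change was 1.41 ± 0.058 (standard error; adjusted p = 3.2e-08) with TSA and 1.77 ± 0.058 (adjusted p = 5e-09) with butyrate. Slc2a1, the widespread basal transporter, read 8.10, 8.17 and 8.00 untreated, 8.22, 8.33 and 8.33 with TSA, and 8.78, 8.90 and 8.78 with butyrate. The TSA rise was small (0.20 ± 0.060, adjusted p = 0.017), and its call was lost without untreated replicate 3, TSA replicate 2 or TSA replicate 3 (adjusted p = 0.0649, 0.0639 and 0.0605). Butyrate gave 0.73 ± 0.060 (adjusted p = 2.5e-06), and the 2 treatments differed by 0.53 (adjusted p = 0.00015). On the poly-A scale the Slc2a1 rise with butyrate was no longer called (0.37, adjusted p = 0.121).

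Hexokinases commit glucose to metabolism. Hk1 rose by 0.64 with TSA and 0.82 with butyrate. Hk2, the inducible form, read 8.36, 8.50 and 8.44 untreated, 8.87, 8.87 and 8.84 with TSA, and 8.66, 8.54 and 8.49 with butyrate. TSA arrays stood apart, and the butyrate arrays overlapped the untreated ones. Hk2 rose with TSA (0.42 ± 0.058, adjusted p = 0.00013), was not called with butyrate (0.13 ± 0.058, adjusted p = 0.084), and was lower with butyrate than with TSA (-0.30 ± 0.058, adjusted p = 0.0034). Hk2 with butyrate passed when genes above the median level were fitted alone (0.13, adjusted p = 0.0424) and after a further quantile normalization (0.19, adjusted p = 0.0178), and it was called lower on the hybridization scale (-0.29, adjusted p = 0.00669).

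Phosphofructokinase sets the rate of glycolysis and Pfkfb3 makes its strongest activator. The subunits Pfkm and Pfkp rose by 0.73 and 0.94 with TSA and by 0.83 and 1.04 with butyrate. Pfkl was 0.05 with TSA (not called) and rose by 0.33 with butyrate, a difference of 0.28 (adjusted p = 0.0137), though the mean of its probe sets lost the butyrate call (0.18, adjusted p = 0.0877). Pfkfb3 fell most of all members: it read 11.03, 11.08 and 11.10 untreated, 9.01, 9.07 and 9.03 with TSA, and 9.20, 9.31 and 9.31 with butyrate. Treated arrays all lay below untreated ones, and the butyrate arrays above the TSA arrays. The change was -2.04 ± 0.050 with TSA (adjusted p = 1.7e-09; 4.10-fold lower) and -1.80 ± 0.050 with butyrate (adjusted p = 2.4e-09). It was called lower in both treatments on both control scales too.

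**Figure D2:**
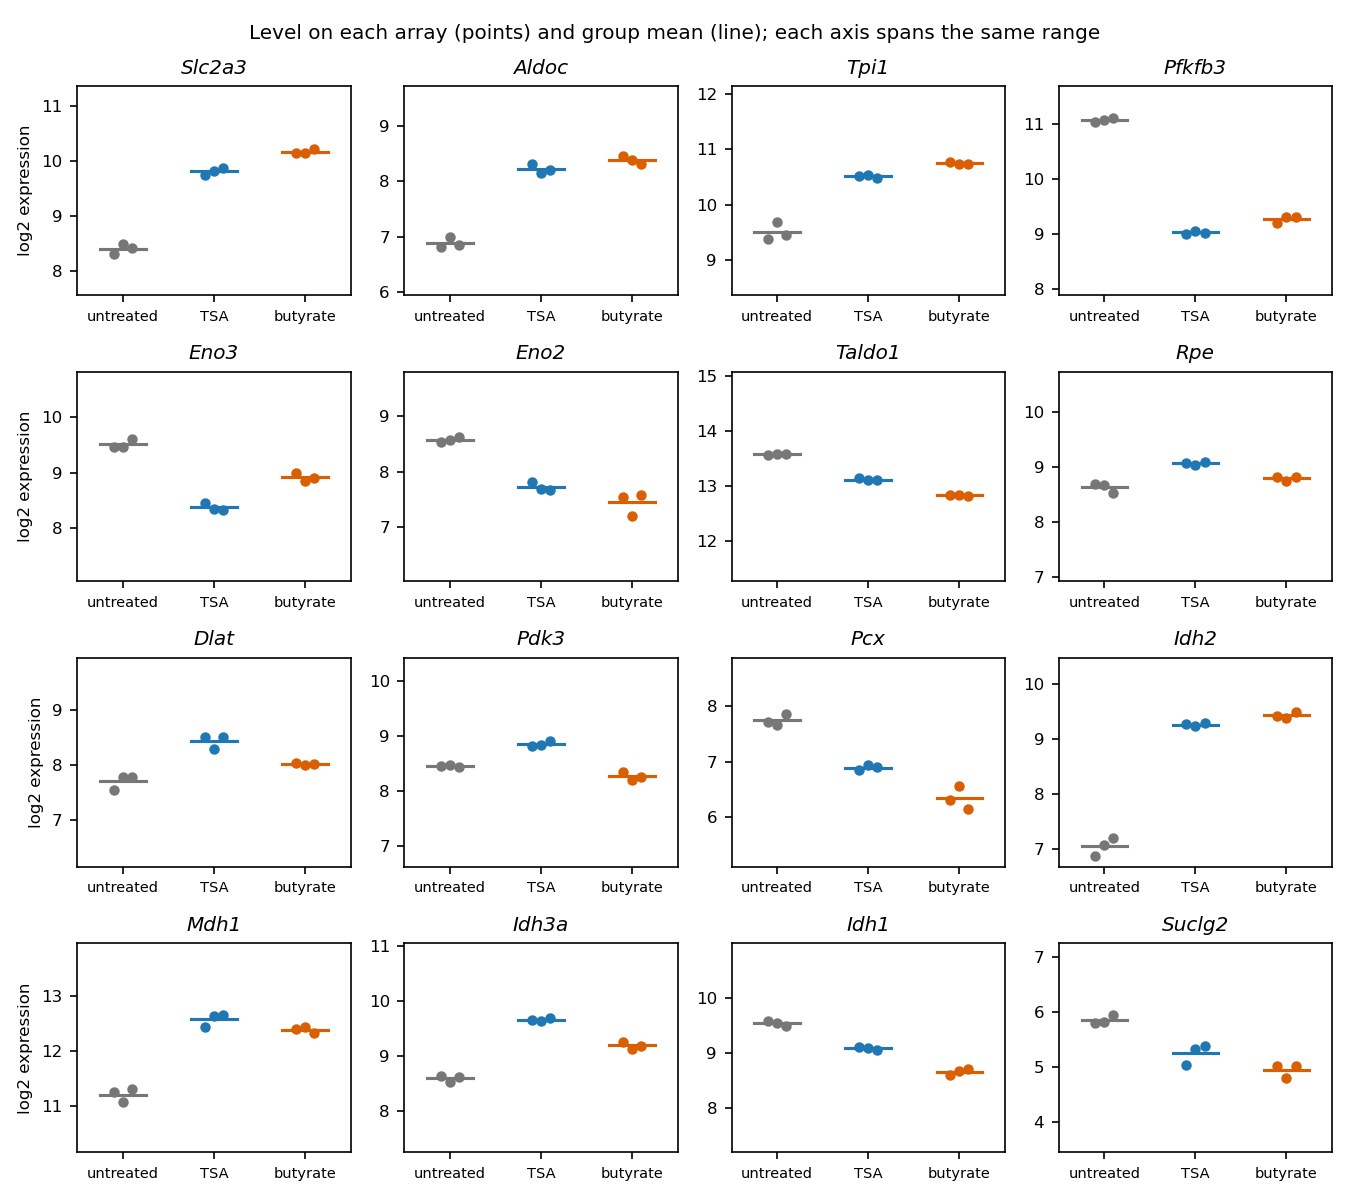
Log2 level (y axis) of named genes on each of the 9 arrays, in untreated, TSA and butyrate samples; points are arrays and lines group means, and every panel spans the same range. Idh2 rose from 6.88-7.20 untreated to 9.23-9.29 with TSA, and Pfkfb3 fell from 11.03-11.10 to 9.01-9.07.

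Aldolase splits the bisphosphate sugar. Aldoc read 6.82, 6.99 and 6.84 untreated, 8.32, 8.15 and 8.21 with TSA, and 8.46, 8.39 and 8.32 with butyrate, a rise of 1.35 ± 0.067 and 1.51 ± 0.067. Aldoa, the main muscle and widespread form, fell by 0.31 and 0.44. Tpi1, which interconverts the triose phosphates, read 9.38, 9.67 and 9.44 untreated, 10.52, 10.54 and 10.48 with TSA, and 10.77, 10.73 and 10.74 with butyrate. It rose by 1.02 ± 0.071 and 1.25 ± 0.071, and its treated arrays lay wholly above the untreated.

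From Gapdh to the enolases, 3 genes rose, and Eno2 and Eno3 fell, while the enolase gene Eno1 was not analysed here. Gapdh, which oxidises the triose phosphate, was read from a control probe set of the array. It read 12.94, 12.97 and 12.92 untreated, 13.25, 13.22 and 13.24 with TSA, and 13.16, 13.15 and 13.18 with butyrate (0.29 ± 0.042 and 0.22 ± 0.042). All treated arrays lay above the untreated ones on the deposited scale, while the hybridization scale called Gapdh lower with butyrate (-0.20, adjusted p = 0.0416). Pgk1, which makes ATP, rose by 0.36 and 0.27, and Pgam1, which moves the phosphate of the triose acid, by 0.76 and 0.58. The Pgam1 rise with butyrate was not called on the control scales (0.16 and 0.22, adjusted p = 0.0975 and 0.369). Eno2 and Eno3 are the neuronal and muscle enolases, and both fell. Eno3 read 9.47, 9.46 and 9.61 untreated, 8.44, 8.33 and 8.33 with TSA, and 8.99, 8.85 and 8.89 with butyrate. The untreated arrays stood above the others, and the butyrate arrays between the groups. The fall was -1.15 ± 0.061 with TSA and -0.60 ± 0.061 with butyrate, a difference of 0.55 ± 0.061 (adjusted p = 0.00013). Eno2 read 8.54, 8.57 and 8.63 untreated, 7.81, 7.69 and 7.66 with TSA, and 7.55, 7.20 and 7.57 with butyrate, giving -0.86 ± 0.092 and -1.14 ± 0.092.

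At the end of the pathway, Pkm (pyruvate kinase) was -0.20 with TSA (adjusted p = 0.036) and -0.31 with butyrate. The TSA call was lost without untreated replicate 2 or 3, or TSA replicate 1, 2 or 3 (adjusted p = 0.104, 0.125, 0.12, 0.0649 and 0.0521). Ldha, whose enzyme makes lactate, read 10.19, 10.37 and 10.27 untreated, 10.72, 10.63 and 10.69 with TSA, and 10.68, 10.64 and 10.64 with butyrate (0.40 and 0.38), with all treated arrays above the untreated ones. Ldhb rose by 0.31 and 0.39. On the hybridization scale Ldha and Ldhb were not called with butyrate (-0.04 and -0.02).

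In the pentose phosphate pathway TSA gave 2 higher and 4 lower of 6, and butyrate 1 higher and 3 lower. The hybridization scale called all 6 lower with butyrate, and 8418 of all 12394 genes. Taldo1 (transaldolase) read 13.57, 13.59 and 13.59 untreated, 13.14, 13.10 and 13.10 with TSA, and 12.84, 12.84 and 12.82 with butyrate. Its arrays separated completely, and it fell by 0.47 ± 0.042 and 0.75 ± 0.042. Rpia and Rpe, which interconvert the pentose phosphates, rose with TSA by 0.30 and 0.43. Rpia read 9.21, 9.29 and 9.26 untreated, 9.62, 9.50 and 9.54 with TSA, and 9.35, 9.32 and 9.33 with butyrate (0.08, not called). Rpe read 8.69, 8.67 and 8.52 untreated, 9.06, 9.03 and 9.08 with TSA, and 8.81, 8.74 and 8.82 with butyrate. The TSA arrays stood above all others for both genes. Rpe's butyrate rise was 0.17 (adjusted p = 0.027), lost without untreated replicate 3, butyrate replicate 1 or butyrate replicate 3 (adjusted p = 0.0929, 0.076 and 0.0732) and reversed on both control scales (-0.25 and -0.19).

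Pgls, which hydrolyses the lactone, read 9.71, 9.77 and 9.75 untreated, 9.53, 9.41 and 9.48 with TSA, and 9.71, 9.63 and 9.70 with butyrate: it fell with TSA (-0.27 ± 0.050, adjusted p = 0.001) and was not called with butyrate (-0.06), and the treatments differed by 0.21 (adjusted p = 0.0094). Pgd, the second NADPH-yielding step, read 12.60, 12.72 and 12.74 untreated, 12.45, 12.56 and 12.59 with TSA, and 12.41, 12.33 and 12.33 with butyrate. Its TSA fall of 0.16 was the weakest call (adjusted p = 0.048), and was lost when any array other than untreated replicate 1 or TSA replicate 3 was left out (adjusted p = 0.0554 to 0.167). Tkt (transketolase) read 12.58, 12.57 and 12.65 untreated, 12.40, 12.43 and 12.41 with TSA, and 12.49, 12.42 and 12.48 with butyrate, with changes of -0.18 and -0.13. The TSA arrays lay below the untreated ones, and the butyrate call was lost without untreated replicate 3 or butyrate replicate 2 (adjusted p = 0.0919 and 0.0941), with only the 2 groups compared (0.0607) and after further quantile normalization (-0.03, adjusted p = 0.61). The TSA call was lost after that normalization (-0.11, adjusted p = 0.0678) and on both control scales (adjusted p = 0.0753 and 0.629).

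At pyruvate entry, 4 of 6 genes rose and 1 fell with TSA, and 3 rose and 2 fell with butyrate, or 0 and 3 on the hybridization scale. Pdha1 and Dlat, subunits of the pyruvate dehydrogenase complex, rose by 0.60 and 0.73 with TSA and by 0.43 and 0.32 with butyrate. Pdha1 read 9.19, 9.21 and 9.25 untreated, 9.85, 9.80 and 9.79 with TSA, and 9.59, 9.65 and 9.72 with butyrate. Dlat read 7.56, 7.78 and 7.78 untreated, 8.52, 8.29 and 8.50 with TSA, and 8.04, 8.01 and 8.02 with butyrate. Both genes' treated arrays lay above the untreated ones, and TSA arrays above butyrate arrays. Pdhb, a further subunit of the complex, rose by 0.26 with TSA and was 0.06 with butyrate (not called), a difference of -0.20 (adjusted p = 0.0101). The mean of its probe sets lost the TSA call (0.0031, adjusted p = 0.977). Dld, also of the complex but not a member, rose by 0.13 with TSA (limma adjusted p = 0.0392). It fell by 0.42 with butyrate (adjusted p = 2.62e-05), opposite to Pdha1 and Dlat on the deposited scale. On the hybridization scale neither Pdha1 (0.02, limma adjusted p = 0.858) nor Dlat (-0.10, adjusted p = 0.382) was called with butyrate. The poly-A scale called neither (0.08 and -0.03, adjusted p = 0.765 and 0.899). The other Pdha1 probe set was not called with butyrate on the deposited scale (0.09, adjusted p = 0.259).

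Pyruvate dehydrogenase kinases switch the complex off. Pdk3 read 8.46, 8.47 and 8.43 untreated, 8.81, 8.83 and 8.90 with TSA, and 8.34, 8.19 and 8.25 with butyrate. It rose with TSA (0.40 ± 0.053, adjusted p = 9.8e-05) and fell with butyrate (-0.19 ± 0.053, adjusted p = 0.0098), and its arrays separated completely. Pdk1 read 6.60, 6.74 and 6.81 untreated, 6.94, 6.97 and 6.91 with TSA, and 6.80, 7.05 and 7.16 with butyrate. Its rise was called with butyrate (0.29, adjusted p = 0.018) and not with TSA (0.22, adjusted p = 0.062), and the butyrate arrays overlapped the untreated ones. Butyrate minus TSA was 0.06 (adjusted p = 0.619), and the TSA rise was called without untreated replicate 3, butyrate replicate 1 or butyrate replicate 3 (adjusted p = 0.0471, 0.0178 and 0.0408), with only the 2 groups compared (0.021), with a trend and robust prior (0.0482) and with its probe sets averaged (0.47, adjusted p = 0.001). Its other probe set rose by 0.71 with TSA (adjusted p = 0.00134). The butyrate call was lost without untreated replicate 1, butyrate replicate 2 or butyrate replicate 3 (adjusted p = 0.0718, 0.0579 and 0.068), and reversed on the control scales (-0.13 and -0.07).

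Pcx (pyruvate carboxylase, which makes oxaloacetate) read 7.72, 7.66 and 7.86 untreated, 6.84, 6.93 and 6.89 with TSA, and 6.30, 6.56 and 6.14 with butyrate. Its arrays separated completely, with falls of 0.86 ± 0.098 and 1.41 ± 0.098. Separate control probe sets along the Pcx transcript gave a 3′ minus 5′ difference of 1.20 ± 0.053 (SD, n = 3) untreated, 0.84 ± 0.121 with TSA and 0.36 ± 0.234 with butyrate. The 3′ set fell with both treatments and the middle and 5′ sets were not called; both differences had an exact permutation p of 0.1, the smallest that 3 against 3 allows. For Gapdh the same difference was 0.16 ± 0.014, 0.19 ± 0.025 and 0.22 ± 0.037. Whether RNA integrity or labelling plays a part in the Pcx fall was not tested.

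In the TCA cycle 8 of 15 genes rose and 2 fell with TSA, and 8 rose and 5 fell with butyrate, or 6 and 8 on the hybridization scale and 3 and 5 on the poly-A scale. Idh2, the mitochondrial NADP-dependent isocitrate dehydrogenase, made the largest change of all measured members. It read 6.88, 7.07 and 7.20 untreated, 9.27, 9.23 and 9.29 with TSA, and 9.42, 9.38 and 9.49 with butyrate. Treated arrays all stood above untreated ones, at 2.22 ± 0.076 (adjusted p = 1.2e-08; 4.64-fold) and 2.38 ± 0.076 (adjusted p = 4.1e-09; 5.22-fold). It was called higher with butyrate on both control scales (1.97 and 2.03), and butyrate minus TSA was 0.17 (adjusted p = 0.111).

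Idh1, the cytosolic counterpart, moved the other way. It read 9.59, 9.55 and 9.49 untreated, 9.10, 9.09 and 9.06 with TSA, and 8.60, 8.67 and 8.71 with butyrate (-0.46 and -0.88), falling without overlap in both. As a ratio taken within each array, which no shift of whole arrays can change, Idh2 against Idh1 rose by 2.67 ± 0.12 with TSA and 3.27 ± 0.12 with butyrate, 6.37-fold and 9.62-fold. The exact permutation p was 0.1 for each, the smallest that 3 against 3 allows. Aldoc against Aldoa rose by 1.65 and 1.95 in the same way, Slc2a3 against Slc2a1 by 1.21 and 1.04, and Hk1 against Hk2 by 0.22 and 0.69. Eno3 against Eno2 fell by 0.29 with TSA and was 0.54 higher with butyrate. Ldha against Ldhb overlapped in both, read from 1 probe set per gene. The other Ldhb probe sets rose by 0.37, 0.41 and 0.77 with TSA and by 0.75, 0.74 and 1.09 with butyrate. The Ldhb probe set used rose by 0.31 and 0.39, and ratios with the others were not computed. Of the 11 pairs computed the others were Pfkp against Pfkl (0.89 and 0.70), Pfkm against Pfkl (0.68 and 0.50), Mdh2 against Mdh1 (-0.53 and -0.11), Suclg2 against Sucla2 (-0.68 and -0.51) and Pdk1 against Pdk3 (-0.17 and 0.48).

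**Figure D3:**
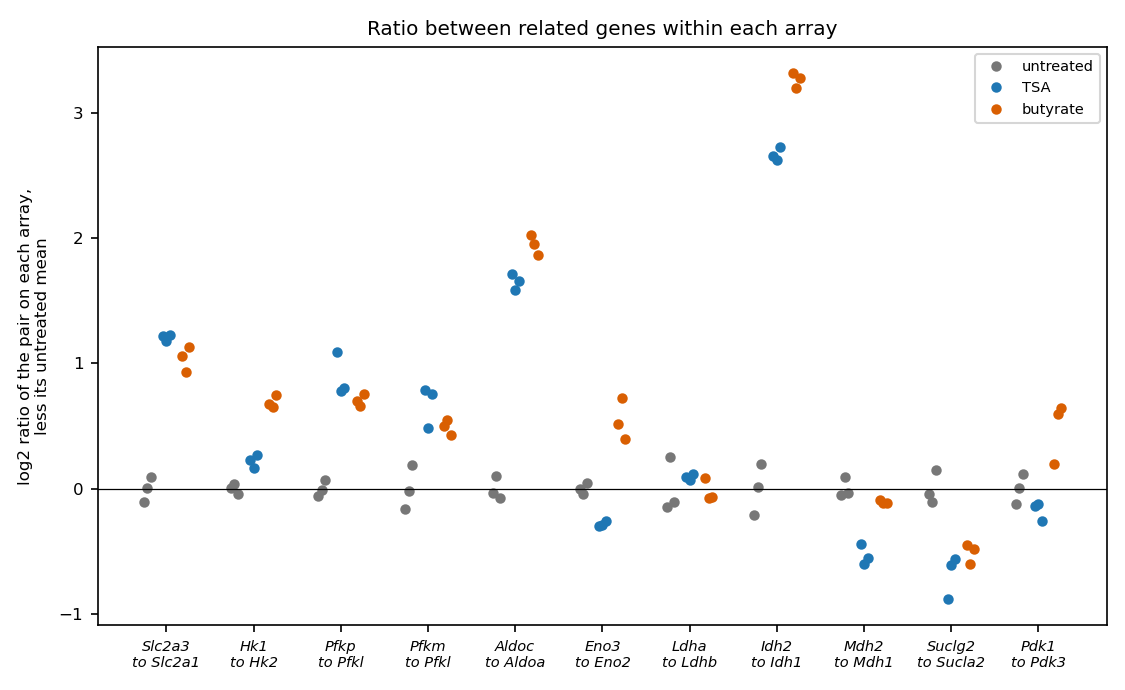
Log2 ratio of related genes within each array, less the pair's untreated mean (y axis), for 11 pairs (x axis); each point is 1 array, coloured by untreated, TSA or butyrate. Idh2 against Idh1 lies higher in all treated arrays. Ldha against Ldhb, from the 1 probe set that stood for each gene, overlaps between the groups.

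The NAD-dependent isocitrate dehydrogenase has 3 subunits measured here. Idh3a read 8.64, 8.52 and 8.61 untreated, 9.64, 9.63 and 9.68 with TSA, and 9.25, 9.13 and 9.18 with butyrate (1.06 ± 0.052 and 0.60 ± 0.052), its butyrate call lost on the hybridization scale (0.18, adjusted p = 0.0536). Idh3b rose by 0.22 with TSA and was -0.01 with butyrate (difference -0.23, adjusted p = 0.0097), and Idh3g was 0.02 and -0.01, neither called; the hybridization scale called Idh3b and Idh3g lower with butyrate (-0.42 each). Cs, the entry enzyme, read 10.79, 10.83 and 10.89 untreated, 11.58, 11.56 and 11.56 with TSA, and 11.63, 11.67 and 11.64 with butyrate, a rise of 0.73 ± 0.046 and 0.81 ± 0.046 without overlap. Mdh1 and Mdh2, cytosolic and mitochondrial malate dehydrogenases, also rose. Mdh1 read 11.25, 11.07 and 11.32 untreated, 12.44, 12.64 and 12.65 with TSA, and 12.40, 12.44 and 12.33 with butyrate (1.37 ± 0.079 and 1.18 ± 0.079). Mdh2 read 11.31, 11.26 and 11.39 untreated, 12.11, 12.15 and 12.21 with TSA, and 12.42, 12.43 and 12.33 with butyrate (0.83 ± 0.054 and 1.07 ± 0.054). The treated arrays of both lay above the untreated ones. Fh1 (fumarate hydratase) rose by 1.02 and 0.68.

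Succinyl-CoA ligase pairs a shared subunit, Suclg1, with either Suclg2 or Sucla2. Suclg1 rose by 0.92 and 0.78. Suclg2 read 5.79, 5.81 and 5.93 untreated, 5.03, 5.32 and 5.37 with TSA, and 5.01, 4.79 and 5.02 with butyrate, with falls of 0.61 and 0.91 near the dim end, where folds are understated. Sucla2 read 9.99, 10.07 and 9.93 untreated, 10.06, 10.09 and 10.09 with TSA, and 9.61, 9.54 and 9.65 with butyrate. It fell with butyrate (-0.39) and was 0.08 with TSA (not called), a difference of -0.47 (adjusted p = 0.000126), and its TSA arrays overlapped the untreated ones. Aco1, a cytosolic aconitase, and Ogdh, of the oxoglutarate dehydrogenase complex, fell with butyrate (-0.33 and -0.25) and were 0.06 and -0.11 with TSA, not called, Ogdh losing its call after further quantile normalization (-0.17, adjusted p = 0.0552). Dlst of the same complex rose with butyrate (0.20; TSA 0.06, not called).

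Set against TSA, butyrate gave 10 members higher and 20 lower (background 35.9% called, 15.9% higher and 20% lower), median -0.12 against 0.03 over all genes. The hybridization scale gave 0 higher and 39 lower members, and 93 higher and 10048 lower of all 12394 genes. The poly-A scale gave 0 and 20 members, and 19 and 2782 genes. The butyrate arrays lay wholly above the TSA arrays for 14 members (background 24.5%) and wholly below for 25 (background 25.8%). No member differed by 2-fold or more, where 0.0888% of all genes were at least 2-fold higher and 0.29% at least 2-fold lower. Lower with butyrate were Pdk3 (-0.59 ± 0.053), Pcx (-0.56), Sucla2 (-0.47), Idh3a (-0.47), Idh1 (-0.43), Dlat (-0.41), Aco1 (-0.39) and Fh1 (-0.33). Higher were Eno3 (0.55), Slc2a1 (0.53), Slc2a3 (0.36) and Pfkl (0.28). Pyruvate entry gave 0 higher and 5 lower of 6.

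**Figure D4:**
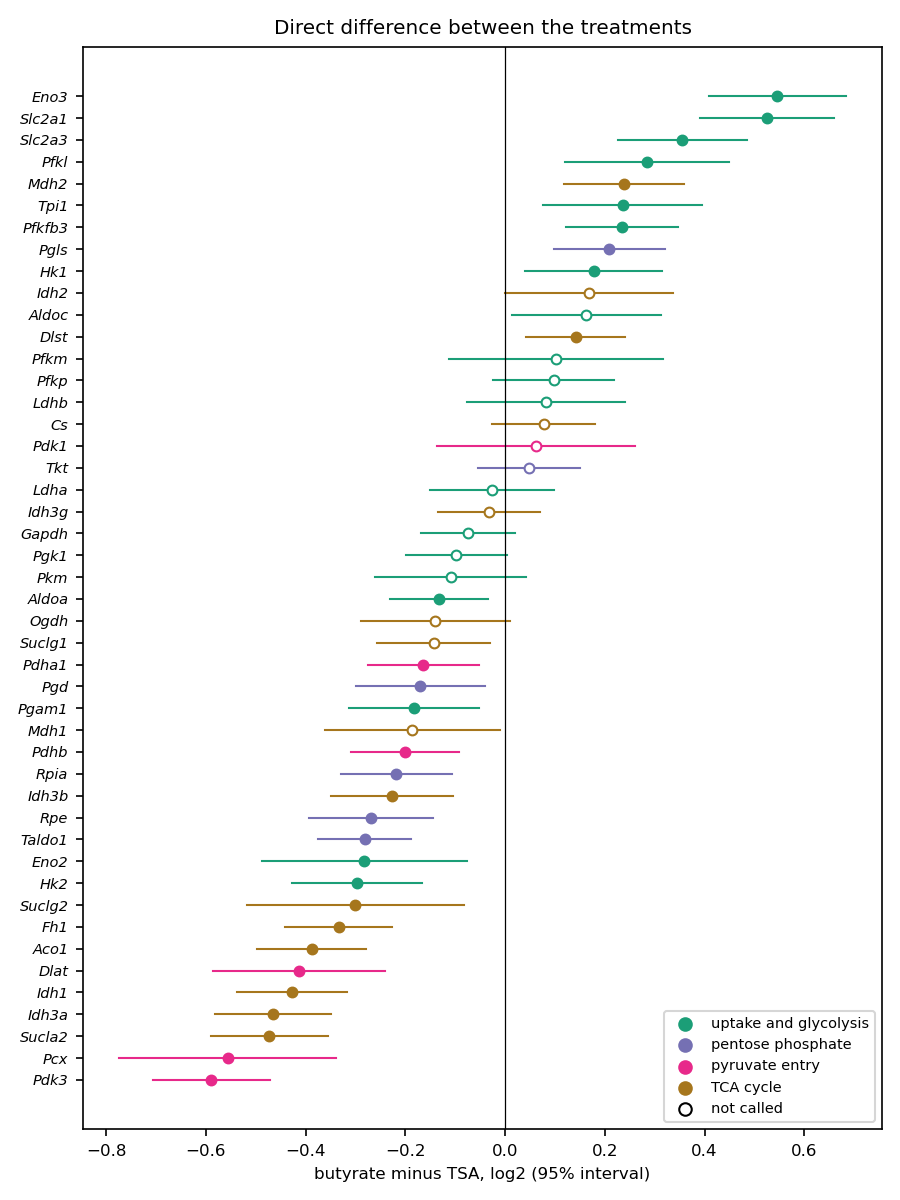
Butyrate minus TSA for each measured gene on the log2 scale, deposited scale; points are limma estimates from 3 arrays a group with 95% intervals, coloured by role and open where not called. Pdk3 (-0.59) is lowest and Eno3 (0.55) highest. On the hybridization control scale no member was called higher, and 93 of all 12394 genes were.

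Of the 56 other pathway genes listed, 39 were measured; 12 rose and 10 fell with TSA, and 12 rose and 11 fell with butyrate. These counts lie near the background over all genes (26.3% higher and 21% lower with TSA, 33.6% and 24.8% with butyrate). The named falls were Gbe1 (glycogen branching; -2.87 with TSA and -3.00 with butyrate), Me1 (malic enzyme; -1.78 and -1.89) and Acod1 (itaconate synthesis; -1.61 and -1.33), and the named rises Prps1 (phosphoribosyl pyrophosphate synthesis; 0.97 and 0.28) and Slc2a8 (a glucose transporter; 0.83 and 1.12). Prps1 was -0.13 with butyrate on the hybridization scale, not called. Of 12 regulators, 5 rose and 0 fell with TSA, and 6 rose and 0 fell with butyrate on the deposited scale. The shares called, 41.7% and 50%, lay below the 47.3% and 58.4% over all genes. Txnip, an inhibitor of glucose uptake, read 9.24, 9.23 and 9.17 untreated, 10.88, 10.77 and 10.73 with TSA, and 11.27, 11.29 and 11.43 with butyrate (1.58 and 2.12), and it was called higher with butyrate on both control scales (1.70 and 1.76). Mlxip, Ppargc1a, Mlxipl and Egln1 rose by 0.40, 0.42, 0.26 and 0.23 with TSA and by 0.55, 0.34, 0.37 and 0.21 with butyrate. Esrra rose by 0.24 with butyrate. With butyrate on the hybridization scale Mlxip was 0.13 and not called, and Egln1 turned to -0.20. Ppargc1a and Mlxipl had low untreated means (4.36 and 4.64), near the floor of the arrays, and the Mlxipl TSA arrays overlapped the untreated ones. Hif1a and Myc were -0.02 and 0.13 with TSA and -0.05 and -0.02 with butyrate, not called on the deposited scale, and the hybridization scale called both lower with butyrate (-0.47 and -0.44).

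Markers of other cell types moved too. All 8 of 8 measured macrophage and monocyte markers fell in both treatments; their mean level ran from 9.19 to 9.30 untreated, 8.31 to 8.49 with TSA and 7.93 to 8.12 with butyrate. Of 9 neutrophil markers 6 fell with TSA (mean 10.45 to 10.50 untreated, 9.75 to 9.83 with TSA) and 5 with butyrate (10.06 to 10.08), where 3 rose. Of 9 B cell markers 5 fell with TSA and 2 with butyrate, and of 13 DC markers 7 fell and 1 rose with TSA, and 8 fell and 2 rose with butyrate. Over the erythroid, T cell, NK cell and B16 melanoma lists, 5 of 6, 4 of 8, 3 of 7 and 3 of 8 measured genes fell with TSA, and 1 B16 marker rose. With butyrate 4, 2, 2 and 2 of them fell and 1, 1, 1 and 3 rose. Over all genes 21% were called lower with TSA and 24.8% with butyrate, so the butyrate falls of the B cell, T cell, NK cell and B16 lists lie near that share. Their part in the results was not tested.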

How the data were processed

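The deposited values are log2 levels of 22690 probe sets, made by the authors with RMA (background correction, quantile normalization and a summary over probes) per the submitters' processing notes; which program was used, its version and how probe sets were defined is not given in the sources used here. RMA levels of dim genes lie near a floor, so their folds are understated. Of the probe sets, 20393 had 1 symbol, 691 several and 1606 none; 20364 identifiers matched the RefSeq gene table and 0 symbols differed. Each of the 12394 genes was its probe set with the highest mean. limma 3.58.1 in R 4.3.3 fitted 3 group means to all 9 arrays and all genes, with Benjamini-Hochberg adjustment over all of them, and genes with an adjusted p under 0.05 were called; the fit was tested on simulated data. Control scales subtract each array's mean over 7 hybridization or 12 poly-A control probe sets. The number of arrays, 3 a group, limits the precision. Members and lists were chosen with earlier results of these data known. Every measured member is described; per-array values are given for up to 3 largest rises and falls per role and treatment, the 2 largest differences between treatments, and a few genes listed whatever their values. Alternatives without control probe sets and without probe sets of shared probes were added after seeing the data.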

Additional observations from a re-analysis of the deposited data

Results flagged for a closer look

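Pdk3 moved in opposite directions in the 2 treatments: butyrate minus TSA was -0.59 (limma adjusted p = 3.73e-05), with all 3 TSA arrays above and all 3 butyrate arrays below the untreated arrays. The fall with butyrate alone (-0.19) lost its call after a further quantile normalization (-0.12, adjusted p = 0.0725), while the difference between the treatments was tested directly.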

How the results depend on the processing

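The labels number the samples of each group 1 to 3. Same-numbered arrays deviated from their group means with correlations of -0.12 to 0.21 (median -0.04), and differently numbered ones of -0.25 to 0.16 (median 0.01). In both other groups, 0 of 9 arrays correlated best with their own number. With 3 arrays a group this cannot exclude that same-numbered samples share a mouse or batch. With the replicate number as a block, 5733 genes and 28 higher and 11 lower members were called with TSA, 7090 genes and 25 and 14 members with butyrate, and 4116 genes and 8 and 17 members in butyrate minus TSA. Leaving out 1 array gave 5332 to 5866 genes, 26 to 28 members higher and 10 to 12 lower with TSA; 6560 to 7206, 23 to 25 and 14 to 15 with butyrate; and 3396 to 4472, 7 to 11 and 14 to 21 in butyrate minus TSA. The poly-A control scale called 2529 genes and 16 higher and 6 lower members with TSA. With butyrate it called 4129 genes and 9 higher members, and in butyrate minus TSA 2801 genes and 0 higher members. The poly-A controls varied more between untreated arrays (SD 0.308) than they shifted with TSA (0.027). The median member change with TSA was 0.27 on that scale and 0.30 as deposited, so calls were lost there with little change in size. The hybridization control scale called 9350 genes and 13 higher and 24 lower members with butyrate. In butyrate minus TSA it called 10141 genes and 0 higher and 39 lower members. Higher genes were 57.5% of those called with butyrate on the deposited scale, 9.97% on the hybridization and 13.3% on the poly-A scale; which scale is nearer the RNA content of the cells was not tested. Against the middle probe set in place of the 5′ one, the Pcx difference with TSA was -0.603. On the hybridization control scale, these changes of butyrate against untreated cells turned sign and were called on at least 1 of the 2 scales: Hk2 -0.29, Pfkl -0.0816, Gapdh -0.20, Pgk1 -0.15, Ldha -0.0396, Ldhb -0.0222, Rpia -0.33, Rpe -0.25, Pdhb -0.36, Dlat -0.10, Pdk1 -0.13, Dlst -0.21, Prps1 -0.13, Mycn -0.34, Egln1 -0.20, Egln3 -0.40, Mlxipl -0.0481, Esrra -0.17 and Ppargc1a -0.0756; Arnt turned too, called on neither. On the poly-A control scale, these changes of butyrate against untreated cells turned sign and were called on at least 1 of the 2 scales: Pfkl -0.0216, Gapdh -0.14, Pgk1 -0.0893, Rpe -0.19, Dlat -0.0349, Pdk1 -0.0696, Dlst -0.15, Prps1 -0.0736, Egln1 -0.14, Esrra -0.11 and Ppargc1a -0.0155; Hk2, Rpia, Pdhb, Mycn, Arnt and Egln3 turned too, called on neither. On the hybridization control scale, these changes of butyrate against TSA turned sign and were called on at least 1 of the 2 scales: Slc2a3 -0.0453, Hk1 -0.22, Pfkl -0.12, Pfkm -0.30, Pfkp -0.30, Pfkfb3 -0.17, Aldoc -0.24, Tpi1 -0.16, Ldhb -0.32, Pgls -0.19, Tkt -0.35, Pdk1 -0.34, Cs -0.32, Idh2 -0.23, Dlst -0.26 and Mdh2 -0.16. On the poly-A control scale, these changes of butyrate against TSA turned sign and were called on at least 1 of the 2 scales: Hk1 -0.15, Pfkl -0.0441, Pfkfb3 -0.0941, Tpi1 -0.0926, Pgls -0.12, Dlst -0.19 and Mdh2 -0.0899; Pfkm, Pfkp, Aldoc, Ldhb, Tkt, Pdk1, Cs and Idh2 turned too, called on neither. The other alternatives, with all probe sets of a gene averaged, all probe sets fitted, only the 2 groups compared, a trend and robust prior, or control or shared-probe sets left out, turned no member called on either side of the change. Some calls were lost: averaging kept 38 of 39 with TSA, 39 of 40 with butyrate and 23 of 30 in butyrate minus TSA. Of 50 other probe sets of 29 members, 36 had the same call as the one used with TSA and 37 with butyrate, and 0 the opposite call. Neither other Slc2a1 probe set with TSA was called (0.12 and 0.08). With the block, Tkt with butyrate lost its call (adjusted p = 0.0524) and Pdk1 with TSA gained one (adjusted p = 0.0356).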
